A study of Mus musculus with 12 samples.

Results

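The genes described here are 46 components of the DNA replication machinery, chosen by symbol from a deposited table of 24107 mouse genes. All 46 were in the table, and all 46 were among the 11462 genes with at least 1 FPKM (read fragments scaled to gene length and library size) in at least 3 libraries, which were the genes tested. They comprise origin recognition (6 genes), origin licensing (3), the MCM2-7 helicase (6), helicase activation and origin firing (8), the replicative polymerases with primase (8), the sliding clamp and its loader (6), the single-strand binding protein RPA (3), Okazaki fragment maturation (2), ribonucleotide reductase (2) and the chromatin assembly factor CAF-1 (2).

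RNA was measured by Smart-seq2 sequencing in 12 libraries from C57BL/6 mice, in 4 groups of 3. Ctrl-MEP were wild-type megakaryocyte-erythroid progenitors (MEP), which give rise to red cells and to the platelet-forming megakaryocytes, and Ctrl-Bulk were wild-type whole bone marrow cells. L-MEP were leukemic MEP of genotype Prdm16s, and Prdm16s-Bulk were GFP+ bone marrow cells of genotype Prdm16s. Both Prdm16s groups came from recipient mice with leukemia. Prdm16 is a zinc finger transcription factor, and its short form lacks the PR domain. How it was introduced, how many mice gave the libraries, and their age and sex were not given in the sources used here, so p-values measure only the spread between these libraries. The labels name no GFP selection for the wild-type marrow, so the genotype and the selection for GFP cannot be told apart in the marrow comparison.

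Prdm16 itself was listed at 0.363 to 0.957 FPKM in the 6 wild-type libraries and at 6.35 to 15.3 FPKM in the 6 Prdm16s libraries. Recovered read totals were 6717971 to 9708516 in 10 libraries, 1149696 in Prdm16s-Bulk replicate 2 and 571668 in L-MEP replicate 3. A member was covered by a median of 56.5 reads in L-MEP 3 and by at least 12, while in Prdm16s-Bulk 2 the median was 120 reads and the lowest 8. L-MEP 3 also stood apart from its group in marker genes. Its summed FPKM over the 5 primary granule genes measured of 6 listed was 22897, against 576 and 811 in L-MEP 1 and 2 and 10.1 to 109 in Ctrl-MEP. The sum over 9 megakaryocyte genes was 362 in L-MEP 3, against 5729.7 and 4730.2, and that over 11 erythroid genes was 207, against 1600.1 and 2032. The counts in L-MEP, and the values that replicate 3 moves most, are therefore also given without it.

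Chromosomal replication starts at origins, where the origin recognition complex together with Cdc6 and Cdt1 loads the ring-shaped MCM2-7 helicase in G1, and geminin (Gmnn) blocks reloading once S phase has begun. The kinase Dbf4-Cdc7 and the loading of Cdc45 and the GINS complex then switch the helicase on, and polymerases alpha, delta and epsilon copy the strands with the clamp Pcna. Many of these genes are transcribed in late G1 and S phase under E2F factors, so their RNA is commonly read as a mark of cycling cells. In marrow, erythroid and granulocytic progenitors divide rapidly, whereas mature neutrophils, which make up much of whole marrow, do not.

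Since E2F factors are known to recognise variants of one short GC-rich sequence, the promoter windows of RefSeq (GRCm38.p6, 250 bases before to 50 bases after each annotated transcript start) were searched on both strands for 4 letter strings, TTTCCCGC, TTTCGCGC, TTTGCCGC and TTTGGCGC. Of the 38 members with a window, 14 (36.8%) held at least 1 of the strings. The same was true of 744 of all 32851 windows of this length (2.26%) and of 428 of the 8968 tested genes with a window (4.77%). The 14 members were Mcm3, Mcm5, Mcm6, Mcm7, Cdc6, Cdt1, Gins3, Orc1, Orc3, Rfc3, Pola1, Pold1, Pole2 and Lig1. The windows of Mcm5 and Mcm6 each held a pair of strings on opposite strands that overlap. That of Mcm6 held 3 strings in all, the last of which is cut off by the end of the stretch printed below. A match describes the letters of a window only, not a bound site. The following stretches of 80 bases from within the window, written 5′ to 3′ on the strand of the gene with the matches that lie whole within the stretch in capitals, are shown for 6 members that differ in how their RNA behaved in L-MEP: Cdc6 (chr11:98908003-98908082, plus strand), Mcm7 (chr5:138171979-138172058, minus strand), Mcm5 (chr8:75109346-75109425, plus strand), Mcm6 (chr1:128359746-128359825, minus strand), Orc1 (chr4:108579374-108579453, plus strand) and Pola1 (chrX:93632224-93632303, minus strand).
Cdc6: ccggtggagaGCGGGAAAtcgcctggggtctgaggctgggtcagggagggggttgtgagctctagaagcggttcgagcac
Mcm7: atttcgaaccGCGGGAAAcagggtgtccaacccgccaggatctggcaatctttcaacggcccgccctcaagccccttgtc
Mcm5: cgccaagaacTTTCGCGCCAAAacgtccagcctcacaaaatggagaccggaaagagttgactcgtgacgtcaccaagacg
Mcm6: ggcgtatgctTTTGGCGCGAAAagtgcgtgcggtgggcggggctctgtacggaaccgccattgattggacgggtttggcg
Orc1: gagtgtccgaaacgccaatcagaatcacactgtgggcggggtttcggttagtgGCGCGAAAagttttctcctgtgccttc
Pola1: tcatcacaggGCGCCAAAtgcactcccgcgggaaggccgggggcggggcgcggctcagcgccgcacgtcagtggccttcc

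In leukemic MEP the replication genes were lower as a group. Of the 46, 25 fell in L-MEP against Ctrl-MEP and none rose, where 12.3% of the 11462 genes tested were called lower and 13.7% higher (limma-trend on log2(FPKM + 1), Benjamini-Hochberg adjusted p under 0.05). The 25 included all 3 licensing factors, both Okazaki fragment enzymes, both ribonucleotide reductase subunits and both CAF-1 subunits tested, 3 of 6 origin recognition genes, 3 of 6 MCM2-7 genes, 3 of 8 helicase activation and firing genes, 3 of 8 polymerase and primase genes, 3 of 6 clamp and loader genes and 1 of 3 RPA genes. The steepest falls were those of Orc2, Cdc6, Rfc4 and Orc5. On the FPKM + 1 scale the 25 ranged from 27.1% of the wild-type level (Orc2) to 64.6% (Rfc5).

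The median log2 change of the 46 was -0.82, beside 0.02 for all genes tested, and 45 of 46 changes were below 0, as were 49% of all genes. For 29 members every L-MEP library was below every Ctrl-MEP library, which held for 19.7% of all genes tested, and for none was every L-MEP library above (21.1%). An unadjusted p under 0.05 was found for 28 of the 46 and for 38.1% of all genes. In the summed FPKM of the 46 genes the 3 Ctrl-MEP libraries were at 5373, 4852 and 4691 and the 3 L-MEP libraries at 2977, 3202 and 2541, with no overlap. Without L-MEP 3 the counts were 26 lower and 1 higher, beside 12.3% and 15.1% of all genes, with 23 of the 25 kept. Mcm5, Cdc45 and Pold1 then joined those called lower, Rfc5 and Prim2 left them, and Rfc2 was called higher. Fitting the MEP groups alone, without the marrow libraries, called 14 lower (8.8% of all genes). The RNA is that of a bulk of cells, so fewer cells in S phase and less of each RNA per cell cannot be told apart in any of these comparisons.

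Of the 25 calls in L-MEP, 13 were made in all 20 alternative fits, those of Orc2, Orc5, Orc6, Cdc6, Cdt1, Gins1, Gins2, Rfc4, Rpa2, Fen1, Rrm1, Rrm2 and Chaf1b. The call was lost in 1 alternative for Mcm7, Pcna and Pold2, in 2 for Mcm2, in 3 for Gmnn and Lig1, in 4 for Chaf1a, in 7 for Mcm4, in 10 for Prim2, in 12 for Pola2 and Rfc5 and in 14 for Mcm10. Among the members without a call, leaving out L-MEP 3 moved Rpa3 from -0.52 to -0.05 ± 0.29, Orc4 from -1.03 to -0.50 ± 0.25, Orc1 from -0.89 to -1.37 ± 0.57, Prim1 from -0.50 to -0.18 ± 0.22, Rpa1 from -0.85 to -0.56 ± 0.28 and Gins3 from -0.39 to -0.12 ± 0.21, still without a call. Cell type markers moved between the MEP groups as well. The megakaryocyte sum was 19.2 to 130.3 FPKM in Ctrl-MEP and 362 to 5729.7 in L-MEP, and that of 7 mature neutrophil genes was 16.9 to 292 and 489.7, 1702 and 71835, both sums higher in every L-MEP library. The neutrophil genes did not all rise in L-MEP 1 and 2. There S100a8, S100a9, Ltf and Cxcr2 were above every Ctrl-MEP library, and Mmp8 was so in L-MEP 2 alone. Camp (13.0 and 7.97 FPKM) and Ngp (20.7 and 27.5 FPKM) were within the Ctrl-MEP range. In L-MEP 3 Camp was at 4324 FPKM and Ngp at 7512 FPKM. The erythroid sum was 1852 to 2371 in Ctrl-MEP, with L-MEP 1 and 3 below and L-MEP 2 within that range. No gene of these lists was at 0 in every library of a group, and the part of these cells in the falls was not tested.

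**Figure D1:**
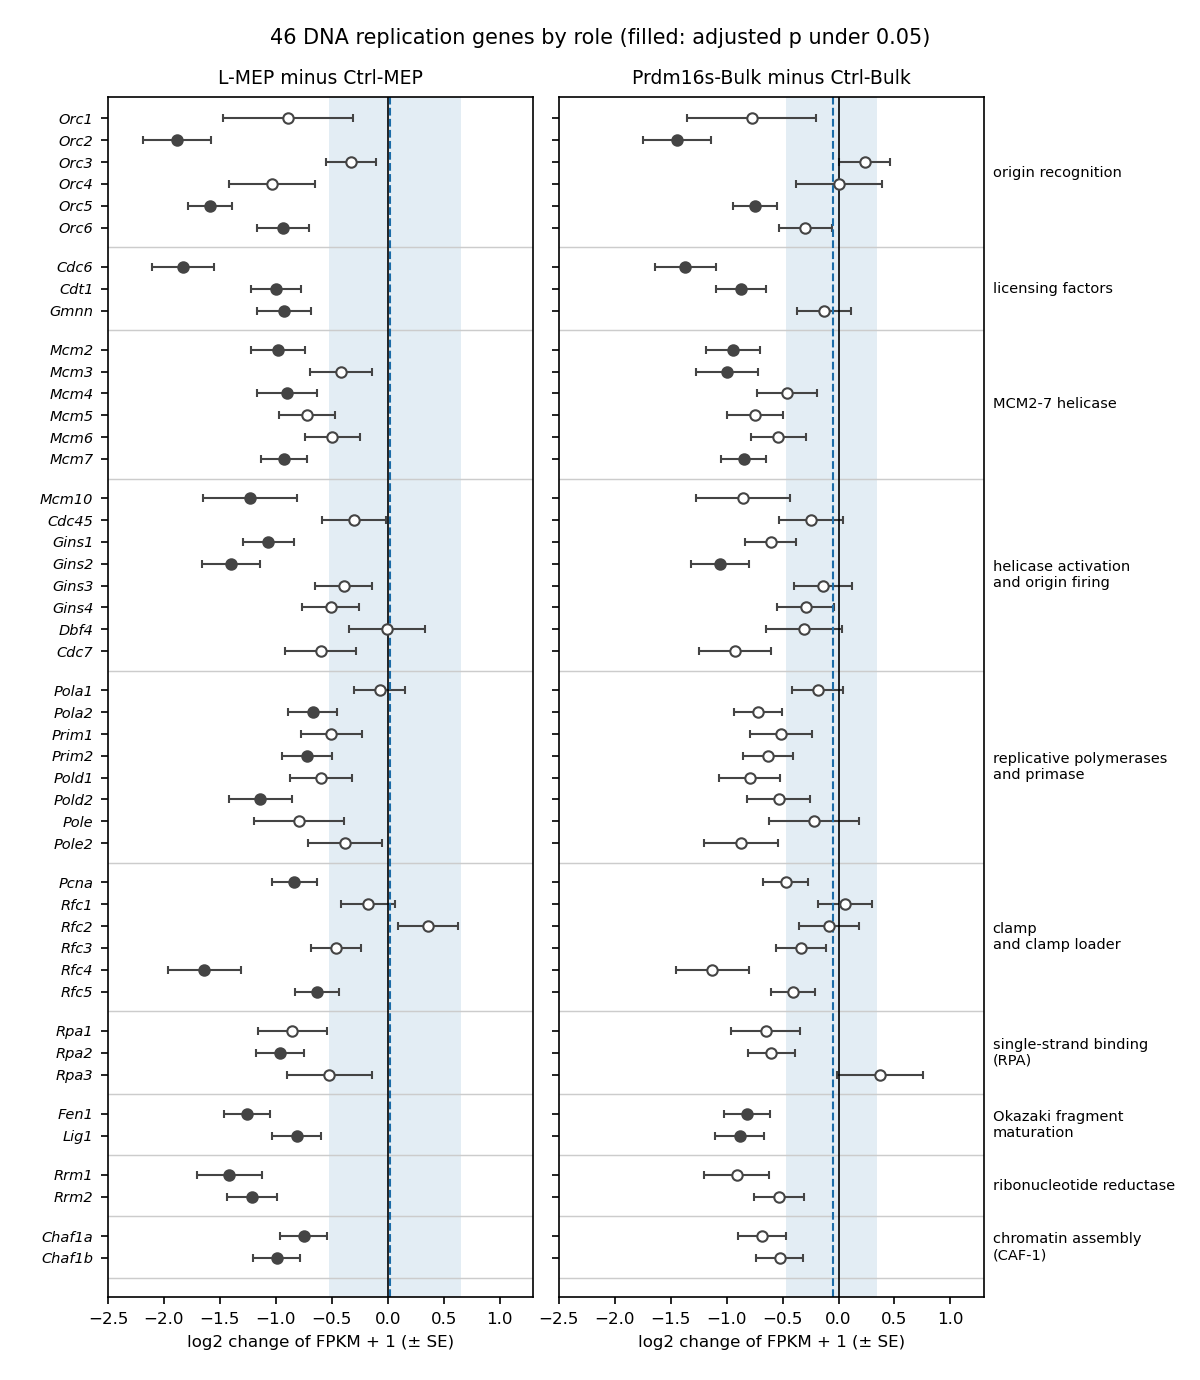
Log2 change of FPKM + 1 (x axis) of each of the 46 genes (rows, grouped by role) in L-MEP against Ctrl-MEP (left) and in Prdm16s-Bulk against Ctrl-Bulk (right), with the standard error as bars. Filled points have an adjusted p under 0.05, the shaded band holds the middle of all genes tested (25th to 75th percentile) and the dashed line is their median. Points lie left of 0 for 45 members on the left and 42 on the right.

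In GFP+ Prdm16s marrow 10 of the 46 fell against wild-type whole marrow and none rose, beside 6.03% of all genes called lower and 3.02% called higher by the same fit. They were Orc2, Orc5, Cdc6, Cdt1, Mcm2, Mcm3, Mcm7, Gins2, Fen1 and Lig1. The 10 thus lie in origin recognition and licensing, the MCM2-7 ring, GINS and Okazaki fragment joining, and none of the 8 polymerase and primase genes, 6 clamp and loader genes, 3 RPA genes, 2 ribonucleotide reductase genes or 2 CAF-1 genes passed the test. That split by role was not kept in every fit. Without L-MEP 3 (10.5% of all genes then called lower), Pola2, Pold1, Prim2, Rfc4, Rpa2, Rrm1, Chaf1a and Chaf1b were called lower in marrow too. The median change of the 46 was -0.60, beside -0.05 for all genes tested, and 42 of 46 changes were below 0, as were 53.4% of all genes. Every Prdm16s-Bulk library was below every Ctrl-Bulk library for 29 members (19.6% of all genes tested) and above for 2, Orc3 and Rpa3 (17.6%). An unadjusted p under 0.05 was found for 25 of the 46 and for 23.9% of all genes. Summed over the 46, FPKM was 3943, 3946 and 3896 in Ctrl-Bulk and 2788, 2679.9 and 2773 in Prdm16s-Bulk.

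The number of calls in marrow depended on single libraries, although the median change lay between -0.51 and -0.64 whichever library was left out. It was 1 without Ctrl-Bulk 2 (Cdc6), 2 without Ctrl-Bulk 3 (Cdc6 and Orc2), 4 without Ctrl-Bulk 1, 4 without the shallow Prdm16s-Bulk 2, 6 without Prdm16s-Bulk 3, 7 without Prdm16s-Bulk 1 and 20 without L-MEP 3, which enters through the shared estimate of the spread and the filter. The number over all genes moved too, from 691 to 275, 279, 335, 511, 590, 582 and 1187 in the same order. Of the 10 calls, that of Cdc6 was made in all 20 alternatives, and the call was lost in 1 for Orc2, in 3 for Gins2, in 4 for Lig1, in 5 for Cdt1 and Mcm7, in 6 for Mcm2 and Fen1, in 7 for Orc5 and in 11 for Mcm3. Cell type markers moved between the marrow groups as well. The summed FPKM of 11 erythroid genes was 2511 to 3979 in Ctrl-Bulk and 191 to 302 in Prdm16s-Bulk, that of 7 monocyte and macrophage genes was 1883 to 1987 and 570.0 to 1014, and that of the 5 primary granule genes was 13259.6 to 15949 and 28486 to 31915. No gene of these lists was at 0 in every library of a group, and the part of cell composition in the falls was not tested.

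The members are described by role, from the origin to the finished strand. The 3 values given for a group are those of replicates 1, 2 and 3. Levels are in FPKM, and changes are log2 differences ± SE with Benjamini-Hochberg adjusted p from the same limma fit. Positions are in GRCm38 coordinates.

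Orc2, a core subunit of the origin recognition complex that marks where replication can begin (chr1:58462771-58505113), was at 68.8, 50.6 and 52.8 FPKM in Ctrl-MEP and 15.3, 12.9 and 16 FPKM in L-MEP. It was at 27.9, 33.6 and 26.2 FPKM in Ctrl-Bulk and 12, 15.1 and 5.47 FPKM in Prdm16s-Bulk. Each Prdm16s library was below each wild-type library of its tissue. Orc2 fell by 1.88 ± 0.30 in L-MEP (adjusted p = 0.000806) and by 1.44 ± 0.30 in Prdm16s-Bulk (adjusted p = 0.0108), the latter no longer called without Ctrl-Bulk 2 (adjusted p = 0.0676). Exons of Nif3l1 lie over 29.8% of the exon bases of Orc2 in the GENCODE M21 annotation. Nif3l1 had a log2 difference of -0.80 ± 0.30 in L-MEP (adjusted p = 0.0696), and since no source states that reads were counted by strand, reads of the shared bases cannot be assigned to either gene.

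Orc5, the ATP-binding subunit next to Orc4 in the complex (chr5:22486480-22550338), was at 159, 120.3 and 129 FPKM in Ctrl-MEP and 46, 52.5 and 35.8 FPKM in L-MEP, again without overlap, and at 66.4, 68.3 and 64.8 FPKM in Ctrl-Bulk and 36, 38.2 and 44.1 FPKM in Prdm16s-Bulk. It fell by 1.59 ± 0.20 in L-MEP (adjusted p = 0.000125) and by 0.74 ± 0.20 in Prdm16s-Bulk (adjusted p = 0.0343), the latter lost in 7 of 20 alternatives, among them the fits without any 1 marrow library but Prdm16s-Bulk 3. Orc6, which joins the core ring loosely, fell by 0.94 ± 0.24 in L-MEP (adjusted p = 0.0125) and had a change of -0.30 ± 0.24 in marrow (adjusted p = 0.485). Orc1, the cell cycle regulated ATPase subunit (chr4:108575705-108616030), was at 24.4, 8.93 and 10.6 FPKM in Ctrl-MEP and 5.34, 3.82 and 13.9 FPKM in L-MEP and at 10.6, 11.3 and 6.71 FPKM in Ctrl-Bulk and 3.2, 2.46 and 14.1 FPKM in Prdm16s-Bulk. Its libraries overlapped in both tissues, because L-MEP 3 was above Ctrl-MEP 2 and 3 and Prdm16s-Bulk 3 above every Ctrl-Bulk library, and neither change passed the test (-0.89 ± 0.58 and -0.78 ± 0.58, adjusted p = 0.278 and 0.453). Orc3 and Orc4 did not pass in either tissue, with changes of -0.33 ± 0.23 and -1.03 ± 0.39 in L-MEP and 0.23 ± 0.23 and 0.01 ± 0.39 in marrow. Orc4 ranged from 4.37 to 18.2 FPKM among the L-MEP libraries, the lowest being L-MEP 3.

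All 3 licensing genes fell in L-MEP. Cdc6, the ATPase that joins the complex on DNA to load the helicase (chr11:98907709-98923942), was at 68.1, 47.4 and 48.3 FPKM in Ctrl-MEP and 10.8, 17.4 and 15.9 FPKM in L-MEP. In marrow it was at 36.4, 33.8 and 32 FPKM in Ctrl-Bulk and 10.9, 9.57 and 18.7 FPKM in Prdm16s-Bulk. Wild-type and Prdm16s libraries were separate in both tissues, and Cdc6 fell by 1.83 ± 0.27 in L-MEP (adjusted p = 0.000518) and by 1.37 ± 0.27 in Prdm16s-Bulk (adjusted p = 0.00821). Both calls held in each of the 20 alternative fits. Cdt1, which brings the helicase to the origin and is destroyed in S phase (chr8:122568015-122573130), was at 50.9, 52.4 and 43.1 FPKM in Ctrl-MEP and 20.5, 22.1 and 29.7 FPKM in L-MEP and at 30.3, 41 and 49.3 FPKM in Ctrl-Bulk and 21.9, 19.4 and 22.1 FPKM in Prdm16s-Bulk. It fell by 1.0 ± 0.22 in L-MEP (adjusted p = 0.00642) and in marrow by 0.87 ± 0.22 (adjusted p = 0.0297), the marrow call being lost without any 1 of 5 marrow libraries (adjusted p between 0.0535 without Prdm16s-Bulk 3 and 0.157 without Ctrl-Bulk 3; Prdm16s-Bulk 1 and 2 and Ctrl-Bulk 2 lie between).

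Gmnn encodes geminin, which holds Cdt1 inactive after origins have fired (chr13:24751845-24761937). It was at 156, 216 and 217 FPKM in Ctrl-MEP and 104, 129 and 77.9 FPKM in L-MEP, with every L-MEP library below every Ctrl-MEP library, and it fell by 0.93 ± 0.24 (adjusted p = 0.0141). Without Ctrl-MEP 2 or Ctrl-MEP 3 the call was lost (adjusted p = 0.0535 and 0.0608). In marrow Gmnn was at 127, 151 and 125 FPKM in Ctrl-Bulk and 113, 104 and 155 FPKM in Prdm16s-Bulk, the groups overlapped, and the change was -0.13 ± 0.24 (adjusted p = 0.797). The ratio of Gmnn to Cdt1 FPKM was 2.53 to 4.17 in Ctrl-Bulk and 5.16 to 7.03 in Prdm16s-Bulk, without overlap, and 3.07 to 5.04 in Ctrl-MEP. In L-MEP it was 5.05, 5.82 and 2.62, so that replicates 1 and 2 lay above every Ctrl-MEP library, replicate 1 narrowly, and L-MEP 3 below every one.

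**Figure D2:**
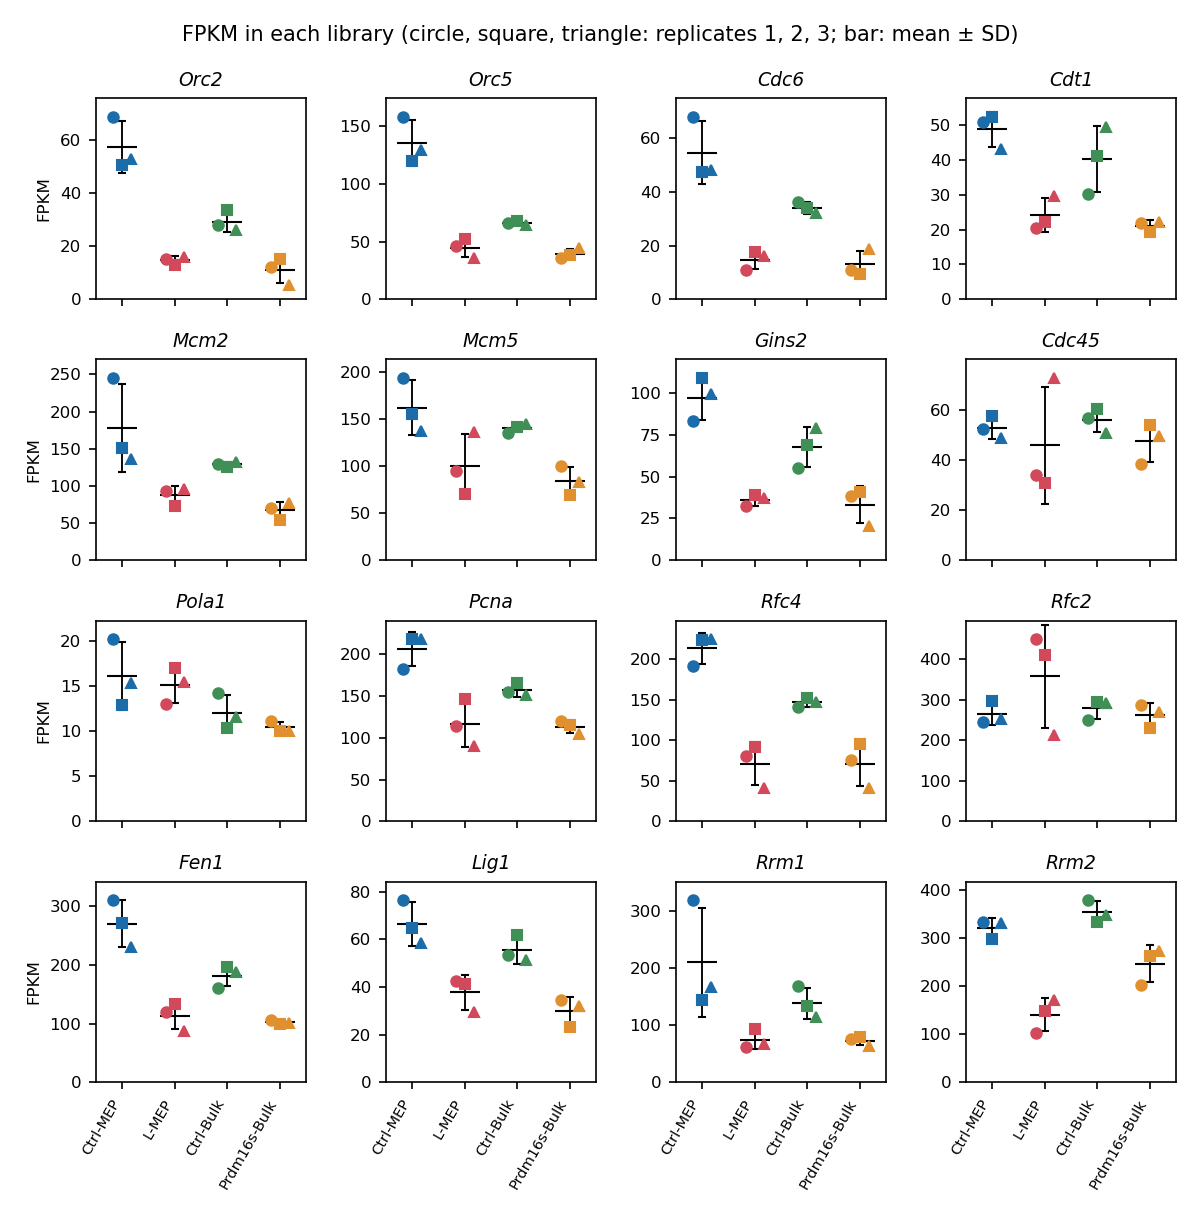
FPKM (y axis, from 0) of 16 of the genes (panels) against group (x axis), with a symbol per library; circles, squares and triangles are replicates 1, 2 and 3, and the black bar gives the mean ± SD of the 3. For Orc2, Orc5, Cdc6 and Gins2 the Prdm16s libraries lie below the wild-type libraries of the same tissue, and Rfc2 and Cdc45 show the spread of L-MEP, with L-MEP 3 at one end.

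The 6 subunits of the MCM2-7 ring, which unwinds the double helix ahead of the polymerases, fell in part. Mcm2, Mcm4 and Mcm7 fell in L-MEP, and Mcm2, Mcm3 and Mcm7 fell in marrow. Mcm2 (chr6:88883474-88898780) was at 246, 151 and 136 FPKM in Ctrl-MEP and 93.5, 72.4 and 95.9 FPKM in L-MEP and at 130.1, 126 and 132 FPKM in Ctrl-Bulk and 70.2, 54.7 and 77.4 FPKM in Prdm16s-Bulk, with Ctrl-MEP 1 far above the other libraries. It fell by 0.98 ± 0.24 (adjusted p = 0.0108) and by 0.94 ± 0.24 (adjusted p = 0.0296), the L-MEP call being lost under quantile normalization (adjusted p = 0.122) or with the MEP groups fitted alone (0.0553), and the marrow call without any marrow library but Prdm16s-Bulk 3 (adjusted p from 0.063 without Prdm16s-Bulk 1 to 0.113 without Ctrl-Bulk 3). Mcm3 (chr1:20802966-20820312) was at 239, 143 and 144 FPKM in Ctrl-MEP and 117, 97.5 and 179 FPKM in L-MEP, which overlapped because of L-MEP 3, with a change of -0.42 ± 0.28 (adjusted p = 0.289). In marrow it was at 165, 142 and 153 FPKM in Ctrl-Bulk and 97.1, 61.6 and 74.4 FPKM in Prdm16s-Bulk and fell by 1.0 ± 0.28 (adjusted p = 0.0438), a call that 11 of 20 alternatives did not make, among them the fits without each Ctrl-Bulk library and without Prdm16s-Bulk 2 or 3.

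Mcm5 (chr8:75109468-75128439), whose window held the overlapping pair of strings, was at 194, 155 and 137 FPKM in Ctrl-MEP and 95, 69.96 and 136 FPKM in L-MEP. The groups did not overlap, but L-MEP 3 lay just under the lowest Ctrl-MEP library, and the change of -0.72 ± 0.25 missed the threshold (adjusted p = 0.0503). Without L-MEP 3 it was -0.97 ± 0.22 (adjusted p = 0.00575). In marrow Mcm5 was at 135, 142 and 145 FPKM in Ctrl-Bulk and 100.1, 69.3 and 83.4 FPKM in Prdm16s-Bulk, again without overlap, with a change of -0.75 ± 0.25 (adjusted p = 0.0885). Mcm4 fell by 0.90 ± 0.27 in L-MEP (adjusted p = 0.0267, a call lost in 7 of 20 alternatives) and Mcm7 by 0.93 ± 0.20 (adjusted p = 0.00599), and Mcm7 fell by 0.85 ± 0.20 in marrow (adjusted p = 0.022), a call lost without Prdm16s-Bulk 2 or 3 or any 1 Ctrl-Bulk library. Mcm6 had changes of -0.50 ± 0.25 in L-MEP and -0.54 ± 0.25 in marrow and passed in neither, although its groups did not overlap in either tissue.

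Within the ring the ends of the order of levels held across most libraries. Mcm6 had the highest FPKM of the 6 subunits in 10 of 12 libraries and Mcm4 the lowest in all 12, over a range of 118 to 337 FPKM for Mcm6 and 45.4 to 145 FPKM for Mcm4. The ratio of the highest to the lowest subunit was 1.99 to 2.52 in Ctrl-MEP, 2.87 to 3.39 in L-MEP, 2.26 to 2.76 in Ctrl-Bulk and 1.88 to 2.6 in Prdm16s-Bulk. L-MEP thus lay above Ctrl-MEP in this ratio, while the marrow groups overlapped. In the origin recognition complex, whose subunits are far less even, Orc6 was highest in 10 libraries and Orc1 lowest in 10.

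**Figure D3:**
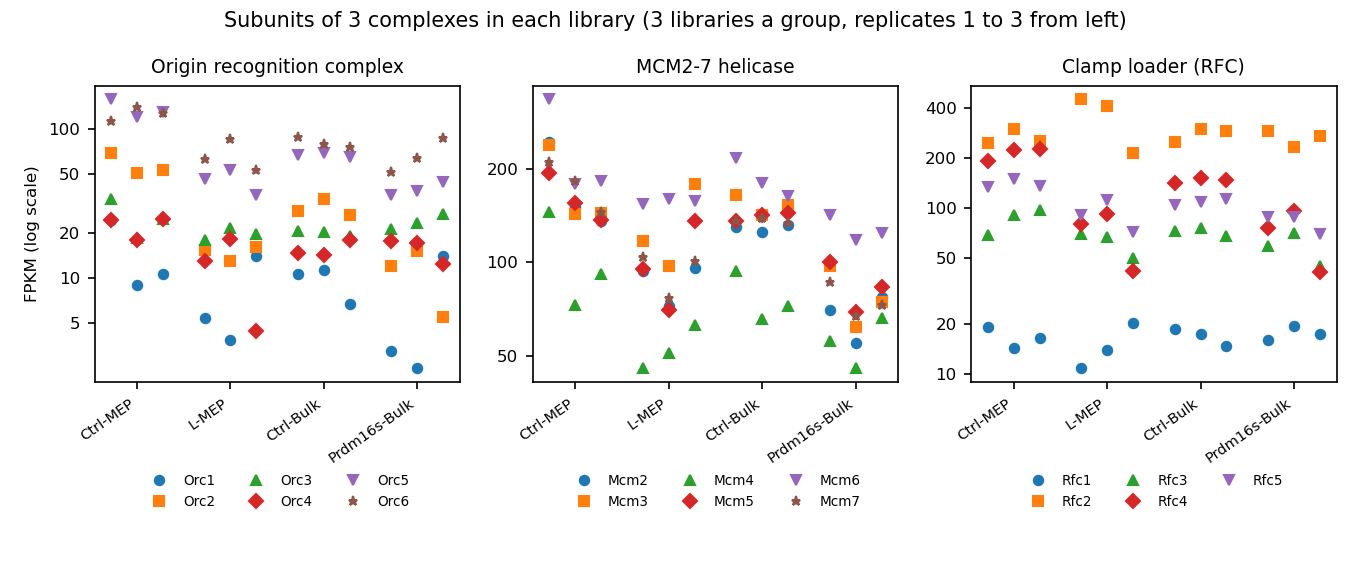
FPKM on a log axis of the subunits of the origin recognition complex (left), the MCM2-7 helicase (middle) and the clamp loader RFC (right) in each library, grouped along the x axis with replicates 1 to 3 from left to right. Mcm4 is the lowest of the helicase subunits in all 12 libraries, and Rfc2 the highest and Rfc1 the lowest of the loader in all 12.

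Among the 8 genes that turn the loaded helicase on, Mcm10, Gins1 and Gins2 fell in L-MEP and only Gins2 in marrow. Gins2, a subunit of the GINS ring that completes the active helicase (chr8:120581266-120589075), was at 83.2, 109 and 99.3 FPKM in Ctrl-MEP and 32.2, 38.8 and 37.1 FPKM in L-MEP and at 55.5, 69.2 and 79.2 FPKM in Ctrl-Bulk and 38.2, 41.1 and 20.5 FPKM in Prdm16s-Bulk. The groups were separate in both tissues, and Gins2 fell by 1.4 ± 0.26 (adjusted p = 0.0021) and by 1.06 ± 0.26 (adjusted p = 0.0249). The marrow call was lost without Ctrl-Bulk 2, Ctrl-Bulk 3 or Prdm16s-Bulk 3 (adjusted p = 0.103, 0.124 and 0.0626). Exons of Gse1 lie over 67.3% of the exon bases of Gins2, and Gse1 had a change of 0.98 ± 0.34 in L-MEP (adjusted p = 0.0537), opposite in sign to that of Gins2. Gins1 fell by 1.07 ± 0.23 (adjusted p = 0.00536), while Gins3 and Gins4, the other two subunits, had changes of -0.39 ± 0.26 and -0.51 ± 0.25 that did not pass.

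Cdc45, the partner of GINS and MCM2-7 in the moving helicase (chr16:18780447-18811972), was at 52.1, 57.5 and 48.6 FPKM in Ctrl-MEP and 34, 30.7 and 72.7 FPKM in L-MEP. L-MEP 1 and 2 were below every Ctrl-MEP library and L-MEP 3 above every one, and the change was -0.31 ± 0.29 (adjusted p = 0.461). Without L-MEP 3 Cdc45 was called lower, at -0.69 ± 0.19 (adjusted p = 0.0199). In marrow it was at 56.7, 60.02 and 50.8 FPKM in Ctrl-Bulk and 38.2, 54 and 49.7 FPKM in Prdm16s-Bulk, with overlap and a change of -0.25 ± 0.29 (adjusted p = 0.655). Ufd1, whose exons lie over 5.96% of those of Cdc45, fell by 0.78 ± 0.19 in L-MEP (adjusted p = 0.0101). Mcm10, which helps the helicase leave the origin, fell by 1.23 ± 0.42 in L-MEP at an adjusted p of 0.0479, just inside the threshold, and 14 of 20 alternatives did not make the call. Dbf4 and Cdc7, the kinase that fires origins, had changes of -0.01 ± 0.34 and -0.60 ± 0.32 in L-MEP and -0.31 ± 0.34 and -0.93 ± 0.32 in marrow, none of which passed.

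Pola2, Prim2 and Pold2 fell in L-MEP among the polymerase and primase genes, and none passed in marrow. Pola1, the catalytic subunit of polymerase alpha that extends the primers (chrX:93304766-93632387), was at 20.3, 12.9 and 15.3 FPKM in Ctrl-MEP and 13, 17.1 and 15.5 FPKM in L-MEP and at 14.3, 10.4 and 11.6 FPKM in Ctrl-Bulk and 11.2, 10.1 and 10.1 FPKM in Prdm16s-Bulk. The groups overlapped in both tissues, and its changes of -0.07 ± 0.23 and -0.19 ± 0.23 were among the smallest of the 46 (adjusted p = 0.848 and 0.675). In L-MEP its sign turned to 0.094 without Ctrl-MEP 1 and to 0.027 without L-MEP 1. Its partner Pola2 fell by 0.67 ± 0.22 in L-MEP (adjusted p = 0.0376), a call that 12 of 20 alternatives did not make, and the difference between the 2 genes was not tested. Pold2, the accessory subunit of polymerase delta, fell by 1.14 ± 0.28 (adjusted p = 0.0116), and Prim2, the large primase subunit, by 0.72 ± 0.22 (adjusted p = 0.0322), the latter lost in 10 of 20 alternatives, with an adjusted p of 0.0717 without L-MEP 3.

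Pole, the catalytic subunit of the leading strand polymerase epsilon (chr5:110286319-110337468), was among the least abundant members, at 10.5, 6.11 and 5.66 FPKM in Ctrl-MEP and 3.04, 4.36 and 3.83 FPKM in L-MEP and at 6.96, 5.0 and 5.6 FPKM in Ctrl-Bulk and 2.9, 3.33 and 10.8 FPKM in Prdm16s-Bulk. Prdm16s-Bulk 3 was above all wild-type marrow libraries, and neither change passed (-0.79 ± 0.40 and -0.22 ± 0.40, adjusted p = 0.167 and 0.791). The marrow value turned to 0.073 without Prdm16s-Bulk 1. Pold1, Prim1 and Pole2 had changes of -0.60 ± 0.27, -0.50 ± 0.28 and -0.38 ± 0.33 in L-MEP and -0.79 ± 0.27, -0.51 ± 0.28 and -0.87 ± 0.33 in marrow. Pold1 was called lower in L-MEP without L-MEP 3 (-0.81 ± 0.27, adjusted p = 0.0405). Among the 8 genes Pole had the lowest FPKM in 11 of 12 libraries, and Prim1 the highest in 8 and Pold2 in 4.

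The clamp loader held both one of the 4 steepest falls and the only change above 0 in L-MEP among the 46. Rfc4, a small subunit of the loader that opens the Pcna ring (chr16:23113948-23127730), was at 191, 223 and 225 FPKM in Ctrl-MEP and 80.1, 91.9 and 41.7 FPKM in L-MEP and at 141, 152 and 147 FPKM in Ctrl-Bulk and 75.6, 94.9 and 40.8 FPKM in Prdm16s-Bulk. It fell by 1.64 ± 0.33 in L-MEP (adjusted p = 0.00326), and its marrow change of -1.13 ± 0.33 missed the threshold (adjusted p = 0.0502) although the groups did not overlap. Without Prdm16s-Bulk 2 the marrow change was -1.38 ± 0.34 (adjusted p = 0.0387). Rfc2, another small subunit of the same ring (chr5:134582690-134598328), was at 246, 298 and 252 FPKM in Ctrl-MEP and 451, 410.0 and 213 FPKM in L-MEP and at 249.6, 296 and 291 FPKM in Ctrl-Bulk and 288, 231 and 269 FPKM in Prdm16s-Bulk. L-MEP 1 and 2 were above and L-MEP 3 below every Ctrl-MEP library, and the change was 0.36 ± 0.27 (adjusted p = 0.343). Without L-MEP 3 it was 0.70 ± 0.18 and called higher (adjusted p = 0.0134).

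The ratio of Rfc2 to Rfc4 FPKM was 1.12 to 1.34 in Ctrl-MEP and 4.46 to 5.63 in L-MEP, and 1.77 to 1.98 in Ctrl-Bulk and 2.44 to 6.6 in Prdm16s-Bulk, without overlap in either tissue. Exons of Lat2, an adaptor of immune receptor signalling, lie over 15.1% of the exon bases of Rfc2. Lat2 was at 4.72, 5.68 and 2.79 FPKM in Ctrl-MEP, 199, 133 and 43 in L-MEP, 45.1, 39.2 and 42.5 in Ctrl-Bulk and 80.5, 73.5 and 60.5 in Prdm16s-Bulk, and rose by 4.33 ± 0.44 in L-MEP (adjusted p = 2.72e-05). Its part in the reads counted for Rfc2 was not tested. Over the exons of Rfc4, 12.7% of bases are shared with Eif4a2, which had a change of 0.23 ± 0.28 in L-MEP (adjusted p = 0.574). For Mcm7 the shared bases were 12.6%, for Rfc5 10.7% and for Orc1 10.8%, and for each of the other members not named with a share they were under 10%. Cops6, which shares bases with Mcm7, had a change of -0.86 ± 0.33 in L-MEP (adjusted p = 0.0707). In marrow Cops6 had a change of 0.29 ± 0.33 (adjusted p = 0.642). Its part in the reads counted for Mcm7 was not tested.

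Pcna, the sliding clamp that tethers the polymerases (chr2:132249286-132253180), was at 182, 217 and 218 FPKM in Ctrl-MEP and 114, 146 and 90.4 FPKM in L-MEP and at 154, 166 and 151 FPKM in Ctrl-Bulk and 120.3, 115 and 104 FPKM in Prdm16s-Bulk, with the groups separate in both tissues. It fell by 0.84 ± 0.20 in L-MEP (adjusted p = 0.00966), and its change in marrow was -0.47 ± 0.20 (adjusted p = 0.177). Rfc5 fell by 0.63 ± 0.20 in L-MEP (adjusted p = 0.0339), a call lost in 12 of 20 alternatives and at an adjusted p of 0.0695 without L-MEP 3. Rfc1, the large subunit, and Rfc3 did not pass, at -0.18 ± 0.24 and -0.46 ± 0.22. Of the RPA genes, whose product coats exposed single strands, Rpa2 fell by 0.96 ± 0.21 in L-MEP (adjusted p = 0.0062), and Rpa1 and Rpa3 had changes of -0.85 ± 0.31 and -0.52 ± 0.38 (adjusted p = 0.0607 and 0.337). In marrow the 3 were at -0.65 ± 0.31, -0.60 ± 0.21 and 0.37 ± 0.38, none of them called.

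Both enzymes that finish the lagging strand fell in both tissues. Fen1, the flap nuclease that trims Okazaki fragments (chr19:10199132-10204393), was at 311, 271 and 230.1 FPKM in Ctrl-MEP and 119, 133 and 88.2 FPKM in L-MEP and at 161, 196 and 188 FPKM in Ctrl-Bulk and 107, 98.8 and 101 FPKM in Prdm16s-Bulk. It fell by 1.26 ± 0.20 (adjusted p = 0.000891) and by 0.82 ± 0.20 (adjusted p = 0.0263), the latter lost without any 1 of the 6 marrow libraries (adjusted p from 0.0574 without Ctrl-Bulk 1 to 0.128 without Ctrl-Bulk 2). Exons of Tmem258 and Gm10143 lie over 84.2% of the exon bases of Fen1, so its count is uncertain where strand was not used. Tmem258 had a change of 0.21 ± 0.38 in L-MEP (adjusted p = 0.731). Lig1, the ligase that seals the trimmed fragments (chr7:13277175-13311426), was at 76.5, 64.8 and 58.4 FPKM in Ctrl-MEP and 42.5, 41.2 and 29.4 FPKM in L-MEP and at 53.3, 61.7 and 51.1 FPKM in Ctrl-Bulk and 34.5, 23.1 and 32.1 FPKM in Prdm16s-Bulk. It fell by 0.81 ± 0.22 (adjusted p = 0.0175, and 0.0622 without Ctrl-MEP 1) and by 0.88 ± 0.22 (adjusted p = 0.0263), the latter lost without Prdm16s-Bulk 2 or any 1 Ctrl-Bulk library (adjusted p up to 0.133, without Ctrl-Bulk 2).

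Ribonucleotide reductase makes the deoxyribonucleotides that the polymerases use. Its large subunit Rrm1 (chr7:102441695-102469771) was at 319, 143 and 167 FPKM in Ctrl-MEP and 62.4, 92.6 and 67.9 FPKM in L-MEP and at 168, 133 and 115 FPKM in Ctrl-Bulk and 75.7, 78.6 and 63.6 FPKM in Prdm16s-Bulk. Ctrl-MEP 1 was far above the other 2 Ctrl-MEP libraries, no library of a Prdm16s group reached a wild-type library of its tissue, and Rrm1 fell by 1.41 ± 0.29 in L-MEP (adjusted p = 0.00401) with a change of -0.91 ± 0.29 in marrow (adjusted p = 0.0748). The small subunit Rrm2 (chr12:24708254-24714146) was at 335, 299 and 332 FPKM in Ctrl-MEP and 103, 149 and 171 FPKM in L-MEP and at 380.5, 334 and 349.6 FPKM in Ctrl-Bulk and 203, 264 and 274 FPKM in Prdm16s-Bulk. It fell by 1.21 ± 0.22 in L-MEP (adjusted p = 0.0019), and its marrow change was -0.53 ± 0.22 (adjusted p = 0.168). The balance of the subunits varied among libraries. The ratio of Rrm2 to Rrm1 FPKM was 1.05 to 2.09 in Ctrl-MEP, 1.61 to 2.52 in L-MEP, 2.26 to 3.05 in Ctrl-Bulk and 2.68 to 4.31 in Prdm16s-Bulk.

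CAF-1 places histones on newly made DNA. Chaf1a, its large subunit (chr17:56040416-56068026), was at 26.3, 17.8 and 18.7 FPKM in Ctrl-MEP and 10.6, 11.2 and 13.9 FPKM in L-MEP and at 17.9, 17.5 and 16.7 FPKM in Ctrl-Bulk and 10.9, 10.2 and 10.2 FPKM in Prdm16s-Bulk, separate in both tissues. It fell by 0.75 ± 0.21 in L-MEP (adjusted p = 0.0218), a call lost without Ctrl-MEP 1 or L-MEP 1 (adjusted p = 0.0816 and 0.0654), and its marrow change was -0.68 ± 0.21 (adjusted p = 0.0696). Exons of Ubxn6 lie over 52.5% of its exon bases, and Ubxn6 had a change of 0.57 ± 0.28 in L-MEP (adjusted p = 0.164). Chaf1b fell by 0.99 ± 0.21 in L-MEP (adjusted p = 0.00499) and had a change of -0.53 ± 0.21 in marrow (adjusted p = 0.151).

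Whether the leukemic change differed between MEP and marrow was tested as the difference of the 2 differences. None of the 46 was called in either direction by limma, where 4.52% of all genes tested were called higher and 0.366% lower, and 3 of the 46 had an unadjusted p under 0.05, as had 17.6% of all genes. The largest differences were those of Orc4 (-1.04 ± 0.55, adjusted p = 0.358), Rpa3 (-0.89 ± 0.54, adjusted p = 0.433) and Orc5 (-0.84 ± 0.28, adjusted p = 0.124), all below 0. Those of Orc4 and Rpa3 depended on L-MEP 3, without which they were -0.50 ± 0.33 and -0.41 ± 0.38, beside -0.70 ± 0.24 for Orc5, and the largest was then that of Rrm2 (-0.84 ± 0.28, adjusted p = 0.0849). Mcm3 had the largest in the other direction, at 0.58 ± 0.39 (adjusted p = 0.491), and without L-MEP 3 it was Rfc2, at 0.79 ± 0.24 (adjusted p = 0.0659). The median difference over the 46 was -0.23, beside 0.04 for all genes, and 34 of 46 were below 0 (48.1% of all genes). It depended on the scaling. With equal FPKM totals the median was 0.02 (all genes 0.25) and 22 were below 0, and under quantile normalization it was -0.04 (all genes -0.15) and 24 were below 0.

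Of the 25 members called lower in L-MEP, 9 (36%) were also among the 10 called lower in Prdm16s-Bulk, of which they made up 90%. That 90% stands beside the 54.3% of all 46 members called lower in L-MEP. The share of all genes called lower in both comparisons was not computed. The 9 were Orc2, Orc5, Cdc6, Cdt1, Mcm2, Mcm7, Gins2, Fen1 and Lig1, and Mcm3 was called in marrow alone. The other 16 were called in L-MEP alone and 20 in neither. These comparisons have no library in common but share 1 estimate of the spread. Among the promoter windows, 4 of the 20 members lower in L-MEP with a window (20%) held an E2F string, namely Cdc6, Cdt1, Mcm7 and Lig1, and 10 of the 18 not called (55.6%) did, among them Mcm5, Mcm6, Orc1 and Pola1. The strings of Cdc6 and Mcm7, printed above, thus lie in the windows of genes that fell in both tissues, and those of Orc1 and Pola1 in the windows of genes called in neither.

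**Figure D4:**
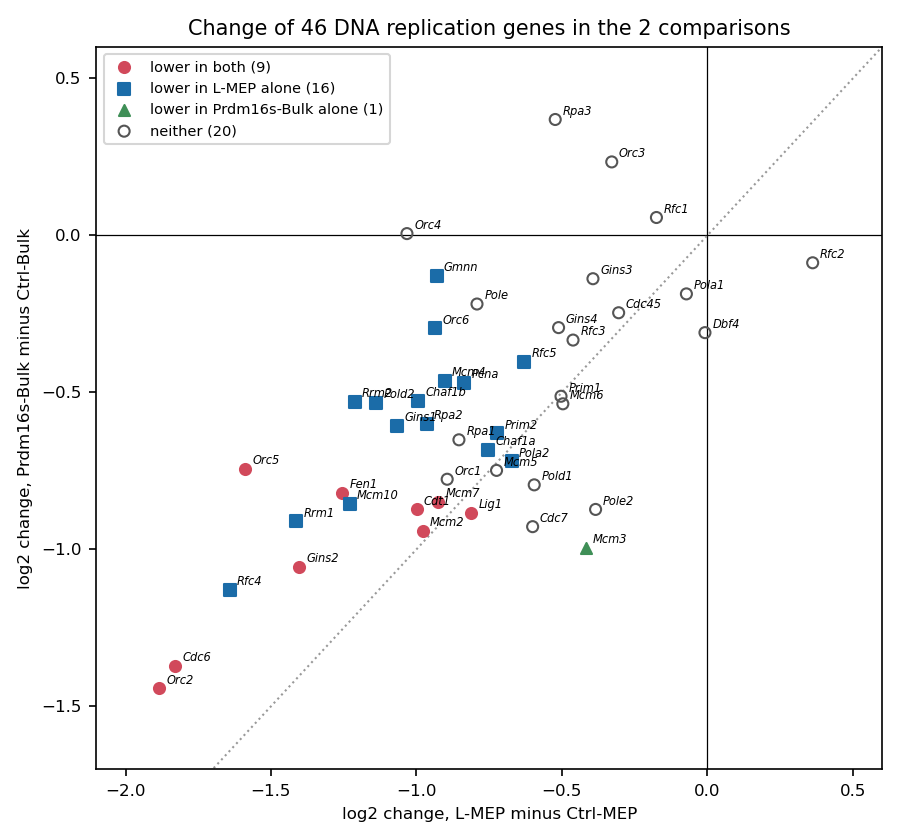
Log2 change of each of the 46 genes in L-MEP against Ctrl-MEP (x axis) and in Prdm16s-Bulk against Ctrl-Bulk (y axis); symbols give in which comparison a gene was called lower, and the dotted line marks equal changes. The 9 genes lower in both lie in the lower left, and Rfc2 is the only point right of 0.

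Between the wild-type populations, 1 of the 46 was called higher in Ctrl-MEP than in Ctrl-Bulk and none lower, beside 2.63% and 12.3% of all genes tested. It was Orc5, higher by 1.01 ± 0.20 (adjusted p = 0.00369). The next by p were Orc2 at 0.95 ± 0.30 (adjusted p = 0.0548), Fen1 at 0.57 ± 0.20 (adjusted p = 0.0882) and Orc6 at 0.65 ± 0.24 (adjusted p = 0.0919). The median over the 46 was 0.32, beside 0.03 for all genes, and 6 of 46 values were below 0 (48.2% of all genes). Every Ctrl-MEP library was above every Ctrl-Bulk library for 17 members (20.3% of all genes) and below for none (26.1%), and 9 had an unadjusted p under 0.05 (27.4%). Without L-MEP 3, 6 members were called higher, Orc2, Orc5, Orc6, Fen1, Pold2 and Chaf1b, while the share of all genes called higher rose to 7.41%. Fitting the wild-type groups alone added Cdc6, Pola2 and Rfc4, for 9, beside 12% of all genes. Between L-MEP and Prdm16s-Bulk none of the 46 passed the threshold in limma's test, beside 0.977% of all genes called higher and 2.08% lower in L-MEP, with 3 of the 46 and 18.9% of all genes at an unadjusted p under 0.05. Every L-MEP library was above every Prdm16s-Bulk library for 4 members, Mcm3, Mcm6, Pola1 and Pola2 (7.62% of all genes), and below for Rrm2 alone (8.3%). The median was 0.13, and 12 of 46 were below 0 (49.5%), with values from -0.82 for Rrm2 to 0.73 for Mcm3. Without L-MEP 3, 1 member was called higher, Rfc2, and 1 lower, Rrm2, beside 5.53% and 9.99% of all genes.

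Genes outside the 46 that act in the same processes were examined in the same fit, in which 12.3% of all genes were called lower in L-MEP and 6.03% in marrow. Of 36 other replication genes, 11 (30.6%) fell in L-MEP and none rose, with a median of -0.56; without L-MEP 3, 12 were called lower and 1, Pole4, higher. Recql4, a helicase needed for origin firing, fell by 1.9 ± 0.36 (adjusted p = 0.0023), Nasp, a histone chaperone, by 1.08 ± 0.21 (adjusted p = 0.00263), Pole3, a subunit of polymerase epsilon, by 1.44 ± 0.30 (adjusted p = 0.0047), and Wdhd1, which couples the helicase to polymerase alpha, by 1.24 ± 0.26 (adjusted p = 0.00489). Recql4 was a low gene, at 4.86 to 7.28 FPKM in Ctrl-MEP and 0.393 to 1.03 FPKM in L-MEP. It was at 2.03 to 4.3 FPKM in Ctrl-Bulk and 0 to 1.29 FPKM in Prdm16s-Bulk. In marrow 3 of the 36 fell, Wdhd1 (-1.16 ± 0.26), Exo1 (-1.41 ± 0.37) and Recql4 (-1.26 ± 0.36), and none rose, with a median of -0.49. These 3 are 8.33% of the list, near the 6.03% of all genes. Of the 36 marrow changes, 30 were below 0, as were 53.4% of all genes. Every Prdm16s-Bulk library was below every Ctrl-Bulk library for 20 of the 36 (19.6% of all genes) and above for 2 (17.6%). The marrow call of Recql4 was lost in 13 of 20 alternatives, that of Exo1 in 8 and that of Wdhd1 in 3, and without Prdm16s-Bulk 2 none of the 36 was called.

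The G1/S cyclin Ccne1 fell furthest of all genes on these lists. It was at 176, 191 and 187 FPKM in Ctrl-MEP and 17.8, 19.3 and 10.3 FPKM in L-MEP and at 75.4, 98.2 and 87 FPKM in Ctrl-Bulk and 23.6, 21.8 and 40.8 FPKM in Prdm16s-Bulk, a fall of 3.51 ± 0.28 in L-MEP (adjusted p = 4.97e-06) and 1.61 ± 0.28 in marrow (adjusted p = 0.00333). Ccne2 and the S phase cyclin Ccna2 also fell in L-MEP, by 1.0 ± 0.33 and 0.70 ± 0.24 (adjusted p = 0.0423 and 0.0473), though each call was made by only 5 of the 20 alternatives. In all, 3 of 6 S phase cyclin and kinase genes fell in L-MEP and 1, Ccne1, in marrow. Of 13 E2F and pocket protein genes, 1 was called lower and 1 higher in L-MEP (7.69% each, beside 12.3% and 13.7% of all genes), with a median of -0.07. In marrow 2 were called lower (15.4%, beside 6.03%) and none higher (3.02% of all genes), with a median of -0.23. E2f4, a largely repressive E2F, fell in both tissues (-1.19 ± 0.23 and -1.0 ± 0.23, adjusted p = 0.00286 and 0.0185), the marrow call being lost in 3 of 20 alternatives. The repressor E2f7, at 0.509, 0.684 and 0.42 FPKM in Ctrl-MEP and 1.68, 2.45 and 2.13 FPKM in L-MEP, rose by 1.0 ± 0.24 in L-MEP (adjusted p = 0.00892, and 0.166 under quantile normalization), and E2f2, an activating E2F, fell by 1.1 ± 0.31 in marrow (adjusted p = 0.0464), a call that 12 of the 20 alternatives did not make.

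Mitosis genes gave the other end of the cycle for comparison. Of 18, 3 fell in L-MEP, Plk1 (-0.77 ± 0.18, adjusted p = 0.00843), Aurka (-0.68 ± 0.22, adjusted p = 0.0431) and Ccnb1 (-0.76 ± 0.25, adjusted p = 0.0445), and the median was -0.35. These are 16.7% of the list, near the 12.3% of all genes called lower. The call of Ccnb1 was lost in 17 of 20 alternatives and that of Aurka in 12. In marrow 1 (5.56%, beside 6.03% of all genes) fell, Plk1 (-0.78 ± 0.18, adjusted p = 0.0181), a call lost in 4 of 20 alternatives, and the median was -0.55. All 18 marrow changes were below 0, as were 53.4% of all genes. For 12 of the 18, every Prdm16s-Bulk library was below every Ctrl-Bulk library (19.6% of all genes). In L-MEP 16 of the 18 were below 0 (49% of all genes), and 3 had every L-MEP library below every Ctrl-MEP library (19.7%). The mean log2(FPKM + 1) of the 46 minus that of the 18 mitosis genes was 0.612, 0.713 and 0.747 in Ctrl-MEP and 0.513, 0.0944 and 0.119 in L-MEP, lower in every L-MEP library, and 0.272, 0.501 and 0.518 in Ctrl-Bulk and 0.31, 0.428 and 0.495 in Prdm16s-Bulk, where the groups overlapped.

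**Figure D5:**
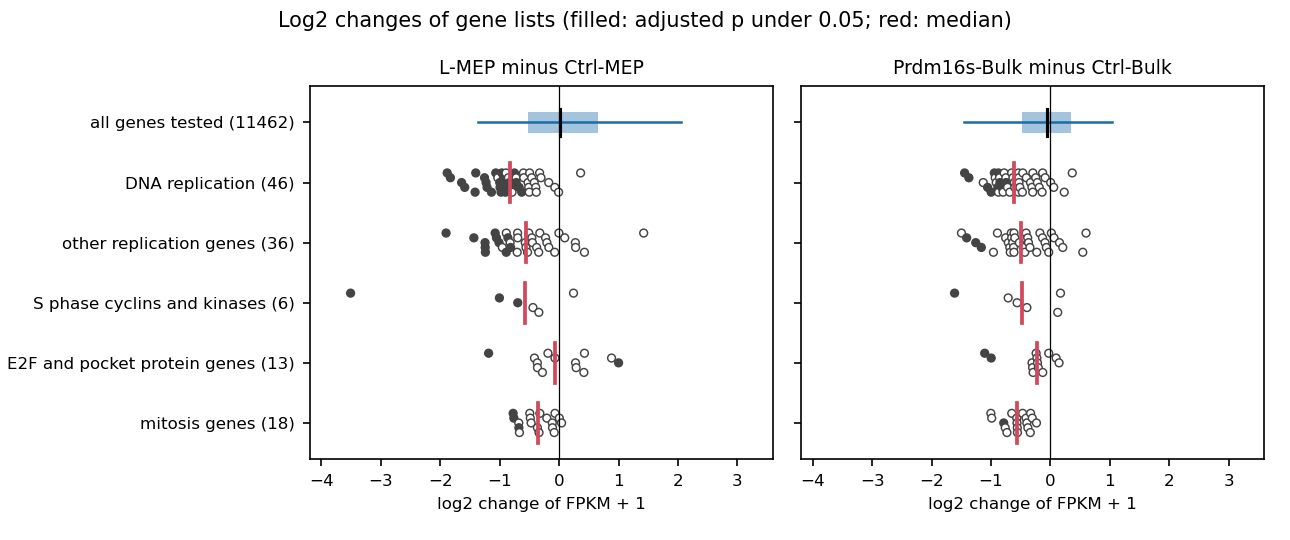
Log2 change of FPKM + 1 (x axis) for the genes of 5 lists (rows; 1 point a gene, filled where the adjusted p is under 0.05, red line at the median) in L-MEP (left) and Prdm16s-Bulk (right), each against wild-type cells. The top row gives all 11462 genes tested as a line from the 5th to the 95th percentile, a box from the 25th to the 75th and a black median near 0. The median of the 46 replication genes is -0.82 on the left and -0.60 on the right.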

How the data were processed

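Cells were sorted into Trizol, cDNA was made by Smart-seq2 and libraries were prepared with Nextera XT from 250 pg and sequenced on a HiSeq2500, per the labels' protocols. The authors deposited 1 table of FPKM values with a column for each of the 12 libraries. STAR 2.5.3a, DESeq2 1.18.1, CASAVA, bcl2fastq and the mm10 genome are named in the submitters' processing notes. The read counter, the gene annotation and whether strand was used were not given in the sources used here. Every library was grouped by its title.

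FPKM was used as log2(FPKM + 1), and genes with at least 1 FPKM in at least 3 libraries were tested with limma 3.58.1 (R 4.3.3; empirical Bayes with a mean trend, 4 groups in 1 fit, 5 comparisons), with Benjamini-Hochberg adjustment over the 11462 genes and a threshold of 0.05. A fold change on this scale understates the change of low genes. Since FPKM steps are whole multiples of what 1 read is worth, reads were recovered for all 16728 genes above 0. For each gene the smallest counts that were whole within 0.02 were taken, so this closeness is a rule of the search and not a check of it. The recovered reads gave the depths and, through limma's voom, an alternative fit. The fit was also run on simulated reads with the depths of these libraries. The simulated reads had the same spread setting for every gene and no library apart in cell type markers. They cannot show how the fit deals with a library such as L-MEP 3. The members, lists, motif and named genes were chosen with earlier results of these data known. Named genes were 17 chosen by role, the 6 largest called differences of each main comparison and up to 4 of the smallest p in each other list. Rfc2 and the genes sharing exons with members were named after their values were seen. Symbols were matched to RefSeq GRCm38.p6 for positions and promoter windows, and exon sharing was counted in GENCODE M21. The alternatives were a pseudocount of 0.1, no filter, quantile normalization, equal FPKM totals, voom, a replicate block, each comparison's groups fitted alone, each library left out and both shallowest libraries left out.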

Additional observations from a re-analysis of the deposited data

Results flagged for a closer look

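In 2 genes of the cell cycle lists outside the 46, the change in MEP differed from that in marrow by limma's interaction term. E2f2 was at 2.32, 3.36 and 2.65 FPKM in Ctrl-MEP and 4.02, 5.8 and 8.7 FPKM in L-MEP and at 12.3, 10.6 and 10.8 FPKM in Ctrl-Bulk and 5.45, 2.96 and 6.2 FPKM in Prdm16s-Bulk, and its change in MEP exceeded that in marrow by 1.99 ± 0.44 (Benjamini-Hochberg adjusted p = 0.024). Every L-MEP library was above every Ctrl-MEP library, and every Prdm16s-Bulk library below every Ctrl-Bulk library. The call was lost in 7 of 19 alternatives, with the value between 1.48 and 2.33. For Ccne1, which fell in both tissues, the change in MEP minus that in marrow was -1.90 ± 0.39 (adjusted p = 0.0158), and the call was lost in 3 of 19 alternatives, with the value between -2.06 and -1.62. L-MEP 3, which stands apart in marker genes, had the highest E2f2 and the lowest Ccne1 of L-MEP.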

How the results depend on the processing

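The median change of the 46 was below 0 in L-MEP and in Prdm16s-Bulk under every alternative run, and no member was called higher in Prdm16s-Bulk. Percentages in brackets are the shares of all genes called in the same direction by the same fit. For L-MEP the number called lower was 14 with the MEP groups fitted alone (8.8%) and 18 to 26 with 1 library left out (7.91% to 14.3%). The number called higher was 1 (Rfc2) under quantile normalization (10.7%) and without both shallowest libraries (15.7%), and 0 to 1 with 1 library left out (8.88% to 15.5%). For Prdm16s-Bulk the number called lower was 16 with equal FPKM totals (7.44%), which moved the median of all genes in marrow to -0.25. It was 17 with voom (9.62%), 19 with the marrow groups fitted alone (8.64%) and 1 to 20 with 1 library left out (2.43% to 10.5%). Quantile normalization moved the median of all genes in MEP to -0.10 and the members' median to -0.65. For Ctrl-MEP against Ctrl-Bulk the number called higher was 3 with equal FPKM totals (5.18%), 5 with voom (7.07%) and 6 without both shallowest libraries (7.72%). It was 9 with these groups alone (12%) and 1 to 6 with 1 library left out (0.566% to 7.41%). For L-MEP against Prdm16s-Bulk the number called higher was 2 with equal FPKM totals (Mcm3 and Pola2, 4.45%) and 0 to 1 with 1 library left out (0.0969% to 5.53%). The number lower was 1 (Rrm2) with voom (9.88%), 1 without both shallowest libraries (9.64%) and 0 to 1 with 1 library left out (0.308% to 9.99%). Some of these fits hold fewer libraries, and the cause of the moves was not tested. No member was called in the difference of the changes in any of its 19 alternatives.

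Over the 73 values of single genes and their alternatives, 1458 in all, 1245 kept direction and call, 164 lost the call, 46 gained it and 3 changed sign, none of these 3 called. They were Pola1 in L-MEP, 0.094 without Ctrl-MEP 1 and 0.027 without L-MEP 1 (range with 1 library left out, -0.21 to 0.094), and Pole in marrow, 0.073 without Prdm16s-Bulk 1 (range, -0.73 to 0.073). With the replicate number as a block, 24 members were lower in L-MEP and 10 in Prdm16s-Bulk, beside 11.6% and 5.54% of all genes. Deviations of libraries with the same number correlated across genes between -0.157 and 0.0204 for Ctrl-MEP with L-MEP and for Ctrl-Bulk with Prdm16s-Bulk. Whether MEP and marrow libraries of the same genotype and number are paired, as from 1 mouse, was not tested. Depth limits the members most in L-MEP 3 and Prdm16s-Bulk 2, where the lowest had 12 and 8 reads.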

Other observations

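The level of Ctrl-MEP 1 relative to its group differed with gene length. For the 23 members with longer exons (split at the median of 4140 exon bases) the ratio of FPKM in Ctrl-MEP 1 to the mean of Ctrl-MEP 2 and 3 had a median of 1.42 and was above 1 in 20, and for the 23 shorter members the median was 0.941 and 9 were above 1. Rpa3, a short gene, was at 113, 232 and 239.8 FPKM in Ctrl-MEP. The change in L-MEP had a median of -0.75 in the longer members, 12 of them called lower, and of -0.90 in the shorter, 13 of them called.

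Xist was at 39.2 to 57.1 FPKM in replicates 1 and 2 of L-MEP and of Prdm16s-Bulk and at 0.0904 or less in the other 8 libraries, in which the Y-linked Ddx3y was at 10.3 to 27.6. All 6 wild-type libraries are thus on one side of this split, and the Prdm16s groups hold both. Pola1 is the X-linked member. The shallow L-MEP 3 is the L-MEP library on the side of the wild types, as is Prdm16s-Bulk 3. In Prdm16s-Bulk, Cdc6, Mcm10, Orc1 and Pole were highest in replicate 3 and Gins2, Orc2, Rfc4 and Pole2 lowest in it. The part of sex in these values was not tested.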
